A study of Homo sapiens and Mus musculus with 33 samples.

Results

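The G1 cyclins and their partners were followed as 10 genes: the cyclins CCND1, CCND2, CCND3, CCNE1 and CCNE2, the kinases CDK2, CDK4 and CDK6, the retinoblastoma gene RB1 and the transcription factor gene E2F1. They were taken by symbol from the RNA-seq tables, as 10 of 35805 human genes and as their 10 orthologues among 25965 mouse genes, together with every ChIP-seq peak in the gene interval or within 2 kb of it. This gave 40 of 40266 peaks in HCT116 cells, 23 of 30338 H3K18cr peaks in mouse colon epithelium and 22 of 27035 H3K4me3 peaks in the same tissue. The rule used symbols and positions only, though the genes were picked with earlier results of these data known.

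The study profiled crotonylation of lysine 18 of histone H3 (H3K18cr) beside acetylation of the same lysine (H3K18ac). HCT116, a human colorectal carcinoma line, was treated for 18 h with 5 µM MS275, an inhibitor of class I histone deacetylases, or with DMSO, its solvent. RNA-seq was made in 4 libraries per treatment, ChIP-seq of each mark in 3 libraries per treatment, and input chromatin in 1 library per treatment. Epithelium from the colon of male C57BL/6 mice, with no treatment named, gave RNA-seq from 3 mice. It also gave H3K18cr ChIP-seq in 2 libraries with 2 inputs and H3K4me3 ChIP-seq in 3 libraries with 1 input. The study's methods say that colons were pooled for the H3K18cr ChIP, while a figure legend names 2 mice. These libraries may therefore not be separate mice. H3K4me3 marks active promoters. HCT116 is a single tumour line grown in culture, and colon epithelium is a mixture of stem, dividing and differentiated cells.

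Entry into S phase is set by these genes. D-type cyclins bind CDK4 or CDK6, E-type cyclins bind CDK2, and the kinases phosphorylate the RB1 protein, which then releases E2F factors to transcribe genes for DNA replication. In the colon, division is confined to the crypt, and colorectal tumours often carry raised cyclin D levels.

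The peaks at the gene starts are the regions in which the marks changed most clearly, so the DNA just upstream of the starts is shown for 4 members whose sequence was on hand and whose window lay inside an HCT116 peak. Sequences are from RefSeq promoters on GRCh38.p14, were found for 6 of the 10 genes, and run 5′ to 3′ on the strand of the gene. Each ends at the base before the start, except for CDK4, where bases in any annotated exon were left out. Capitals mark TTTGGCGC and TTTGCCGC, which with TTTCCCGC and TTTCGCGC were searched on both strands as E2F octamers, and CACGTG, the E-box, which reads the same on both strands.
E2F1, minus strand, chr20:33686386-33686635: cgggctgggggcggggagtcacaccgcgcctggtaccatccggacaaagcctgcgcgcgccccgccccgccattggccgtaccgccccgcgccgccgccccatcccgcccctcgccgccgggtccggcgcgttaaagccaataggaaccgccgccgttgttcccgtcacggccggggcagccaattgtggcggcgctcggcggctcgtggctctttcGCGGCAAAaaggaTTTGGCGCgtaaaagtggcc
CCNE1, plus strand, chr19:29811741-29811990: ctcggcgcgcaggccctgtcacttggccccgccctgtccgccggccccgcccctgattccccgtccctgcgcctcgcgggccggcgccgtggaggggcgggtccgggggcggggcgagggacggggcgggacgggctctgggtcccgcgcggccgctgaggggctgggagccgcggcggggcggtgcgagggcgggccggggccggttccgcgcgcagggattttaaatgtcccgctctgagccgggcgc
CDK4, minus strand, chr12:57752448-57752560: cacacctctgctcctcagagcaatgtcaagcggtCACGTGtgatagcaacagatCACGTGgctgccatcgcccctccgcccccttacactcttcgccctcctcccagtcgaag
CDK6, minus strand, chr7:92836574-92836823: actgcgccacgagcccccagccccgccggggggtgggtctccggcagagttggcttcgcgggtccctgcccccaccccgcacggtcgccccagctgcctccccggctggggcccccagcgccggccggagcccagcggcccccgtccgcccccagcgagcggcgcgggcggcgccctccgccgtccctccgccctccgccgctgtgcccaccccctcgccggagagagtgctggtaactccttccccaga

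The E2F1 window held 2 of the octamers, which began 33 and 20 bases before the start, on opposite strands. Over all 35116 windows of 250 bases upstream of a start, 2.79% held at least 1. The 250 bases upstream of CDK4 held 3 E-boxes, against 6.34% of all windows with at least 1, and 2 of these 3 lie in the stretch shown. Neither motif occurred in the CCNE1 and CDK6 windows, nor in 2 CCND3 windows and a further CDK6 window that also lay in peaks and are left out for brevity. G and C made up 72.4% of the E2F1 window, 81.2% of the CCNE1 window and 80.0% of the CDK6 window.

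RNA libraries of HCT116 held between 35608533 and 53415604 counts, and those of colon between 8166406 and 10707901. Reads in peaks numbered between 2236551 and 5730094 in the HCT116 ChIP libraries. In HCT116, 7 of 10 epithelial marker genes in DMSO and 8 in MS275 reached a mean of 1 CPM. CPM is the read count of a gene scaled to the total of its library, after that total was adjusted by edgeR's TMM factor. CDX1 was at 0 throughout, and the immune markers summed to between 0.760 and 2.14 CPM. A summed list of stromal and endothelial markers went from 14.0 to 19.1 CPM in DMSO to 25.1 to 30.9 CPM in MS275, led by COL1A1, and its part in the results was not tested. In colon all 10 epithelial markers reached 1 CPM and summed to between 9586 and 11104 CPM, while immune markers summed to between 71.5 and 92.6 CPM and stromal and endothelial markers to between 48.9 and 63.7 CPM. The HCT116 RNA libraries numbered 3 stood apart under both treatments: the quartile of genes with the longest exons lay below the other libraries, at a median log2 deviation of -0.33 in DMSO and -0.20 in MS275, and the quartile with the shortest lay above them, at 0.35 and 0.38.

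Which of these genes the cells used was asked first, from CPM divided by the exon length in kb, the scale on which genes can be compared. In HCT116 cells in DMSO, CCND1 stood highest, at 121.8 ± 19.7 CPM per kb (SD, n = 4). CDK4, its main kinase partner, followed at 78.2 ± 13.9, and neither range touched that of the gene below it. CDK2, the kinase of cyclin E, stood at 25.9 ± 3.71 and E2F1 at 20.1 ± 3.01, with ranges that overlapped. CCNE1 (12.1 ± 2.34), RB1 (9.78 ± 3.30) and CCND3 (9.21 ± 2.43) followed, and their neighbouring ranges overlapped too. CDK6 reached 6.05 ± 0.561 and CCNE2 4.11 ± 1.62 CPM per kb. This order depends on the length used: per kb of the longest transcript CCND3 averaged 22.2, above E2F1 (20.1), CCNE1 (15.3) and RB1 (13.2), and CDK4 (105.1 to 157.8) overlapped CCND1 (117.0 to 168.4).

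CCND2 was all but silent in HCT116. It had 19 counts (0.424 CPM) in DMSO library 1 and 0 in each of the other 7 libraries, where 3 counts, the limit that a count of 0 allows, would equal at most 0.0957 CPM. CCND1 held between 90.5% and 94.4% of the D-type cyclin RNA per kb of all exons in DMSO. Per kb of the longest transcript, where CCND1 averaged 136.8 and CCND3 22.2, its share is lower.

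In mouse colon epithelium the D-type cyclins were ordered differently. Ccnd2 stood highest, at 48.0 ± 0.973 CPM per kb (SD, n = 3 mice), with 47.1 in its lowest mouse and 49.0 in its highest. Ccnd1 was at 41.3 ± 2.56, and its highest mouse, at 44.2, stayed below the lowest for Ccnd2. Ccnd2 made up between 46.5% and 49.3% of D-type cyclin RNA per kb, Ccnd1 between 39.5% and 43.6%, and Ccnd3 between 9.91% and 11.2%. The gap between Ccnd2 and Ccnd1 depended on the length used: their mean ratio was 1.16 per kb of all exons, 1.37 per kb of the longest transcript and 2.33 without length. In bulk tissue, more cells that express a gene and more RNA per cell cannot be told apart.

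The kinases kept one order in both models. Cdk4 reached 38.3 ± 1.958 CPM per kb in colon, overlapping Ccnd1 (per kb of the longest transcript it lay above it, at 57.3 to 63.4 against 49.4 to 55.6), and Cdk6 3.20 ± 0.685, so that Cdk4 held 92.3 ± 1.22% of the pair, beside 92.6 ± 1.69% for CDK4 in HCT116 in DMSO. Cdk2 (6.82 ± 0.761) and E2f1 (7.15 ± 1.22) overlapped. Ccne1 (4.47 ± 1.22), Rb1 (3.52 ± 0.731), Cdk6 and Ccne2 (2.53 ± 0.382) formed the low end, each overlapping the next. Species and tissue differ together between the models, so these levels are set side by side with no test.

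**Figure D1:**
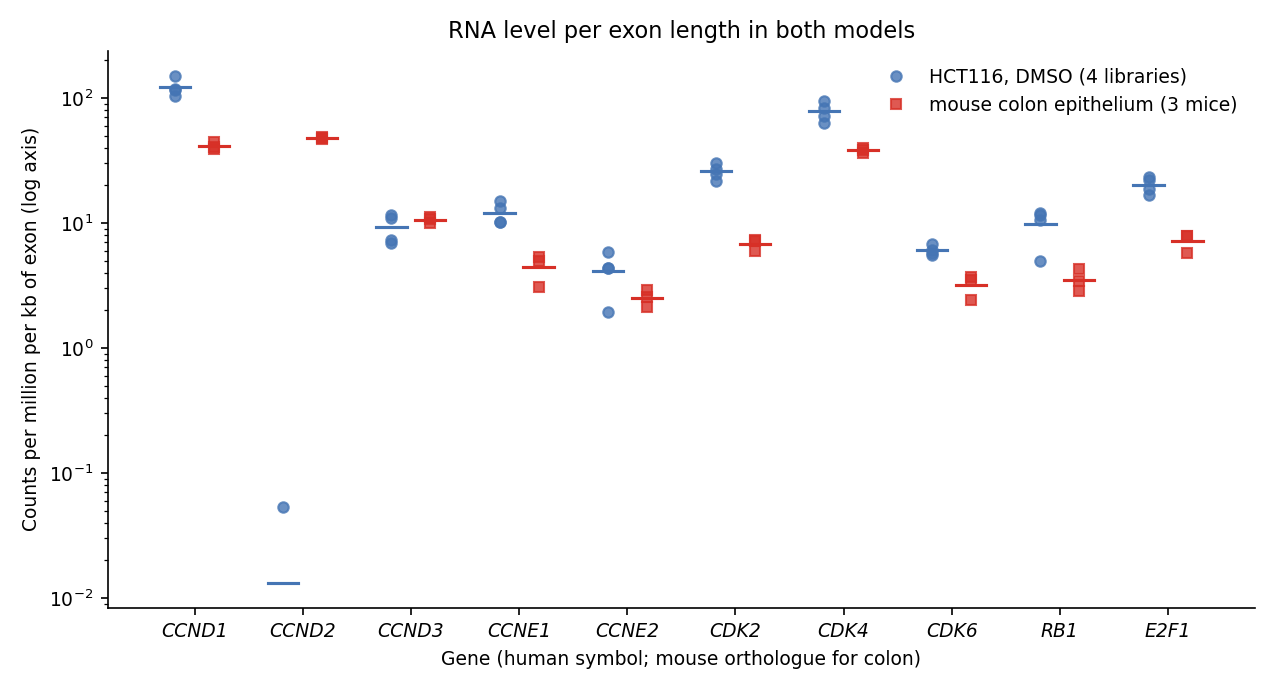
RNA level of each gene in CPM per kb of exon on a log axis, in HCT116 cells in DMSO (circles, 4 libraries) and in mouse colon epithelium (squares, 3 mice), with lines at the means. CCND2 appears with a single circle in HCT116, since its other 3 DMSO libraries are at 0 and cannot be drawn on a log axis, while in colon Ccnd2 is the highest of the 10.

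The second question was whether MS275 moved the RNA of these genes. Without regard to the replicate numbers, edgeR's quasi-likelihood test with Benjamini-Hochberg adjustment called 0 of the 9 members tested, and 1 gene (PAG1, named after its value was seen) of 14961 in all, or 0.00668%. At an unadjusted p under 0.05 it found 1 member, CDK6, and 6.6% of all genes, and DESeq2 called 0 members, beside 0.993% of all genes (0.771% higher, 0.222% lower). CCND2 did not pass the filter on low counts and was not tested. Libraries with the same number deviated together, so the same test was also fitted with the replicate number as a block. This fit called 3 of the 9 members, 2 higher and 1 lower, beside 14.4% of all genes (7.83% higher, 6.55% lower). The median log2 change of the 9 was -0.003 in the block fit, and that of all genes was 0.01. The study names a directional kit for the RNA libraries, but whether reads were counted by strand is not given in the sources used here. Genes on the opposite strand overlap most members (such as LTO1 at CCND1, PMEL at CDK2, TSPAN31 at CDK4, CDK6-AS1 at CDK6 and LPAR6 at RB1), so their reads may be mixed.

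CDK6, which pairs with D-type cyclins, rose in the block fit. Its DMSO libraries 1 to 4 held 74.2, 67.6, 71.0 and 83.5 CPM, and its MS275 libraries 105.3, 100.2, 83.9 and 110.3 CPM. The groups did not overlap, which held for 5.37% of all genes tested, and MS275 was higher in 4 of 4 pairs. The log2 change was 0.43 ± 0.081 (SE) with an adjusted p of 0.0049 in edgeR with the block, a 1.35-fold rise, against 0.43 ± 0.157 and an adjusted p of 0.58 without it. With any 1 replicate number left out, the blocked adjusted p lay between 0.0020 and 0.0495.

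CDK4, the more abundant of the pair, moved the other way. It had 256.9, 221.1, 294.4 and 196.0 CPM in DMSO libraries 1 to 4 and 185.4, 174.7, 248.4 and 162.1 CPM in MS275, so the groups overlapped, with library 3 highest in each. Within pairs MS275 was lower in 4 of 4, and the log2 change was -0.33 ± 0.064 in the block fit (edgeR, adjusted p = 0.0054), or 0.794-fold. Without the block it did not pass (edgeR, adjusted p = 0.84). The quartile of genes with the longest exons was also higher with MS275 in 4 of 4 pairs, with median log2 deviations of -0.04, 0.03, -0.33 and 0.14 in DMSO libraries 1 to 4 and 0.13, 0.12, -0.20 and 0.31 in MS275. CDK6 has 12239 bp of exon and CDK4 3094, and the part of exon length in their changes was not tested. The share of CDK6 in CDK4 and CDK6 RNA per kb went from 7.36 ± 1.69% in DMSO to 11.9 ± 2.89% in MS275 (SD, n = 4), with overlapping ranges.

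Among the D-type cyclins, CCND3 was called higher by the block fit (log2 change 0.33 ± 0.088, edgeR adjusted p = 0.025, 4 of 4 pairs), from 67.0, 42.5, 63.0 and 39.6 CPM in DMSO to 85.5, 51.9, 88.7 and 45.1 CPM in MS275. Its spread between replicates exceeded the change, since libraries 1 and 3 lay above 2 and 4 in each treatment. With any 1 replicate number left out the call was lost, at adjusted p between 0.062 and 0.102. CCND1, the dominant cyclin of these cells, differed by less than its spread, with 580.0 ± 93.6 CPM in DMSO and 551.8 ± 92.0 CPM in MS275 (block log2 change -0.07 ± 0.061, edgeR adjusted p = 0.47).

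The other members did not pass in either fit. CCNE2 was higher in 4 of 4 pairs, at a log2 change of 0.36 ± 0.159 (edgeR with the block, adjusted p = 0.15), and its pair 3 gave 1.00 of log2 while the other pairs gave between 0.11 and 0.24. CCNE1, the more abundant E-type cyclin, had a log2 change of -0.11 ± 0.119 and CDK2 one of 0.00 ± 0.078. E2F1 went from 54.1 ± 8.10 to 50.3 ± 15.4 CPM. RB1 showed how far library 3 could differ: it held 31.7 CPM in DMSO library 3 and 29.9 in MS275 library 3, against 67.5 to 77.4 and 77.0 to 94.2 in the others.

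**Figure D2:**
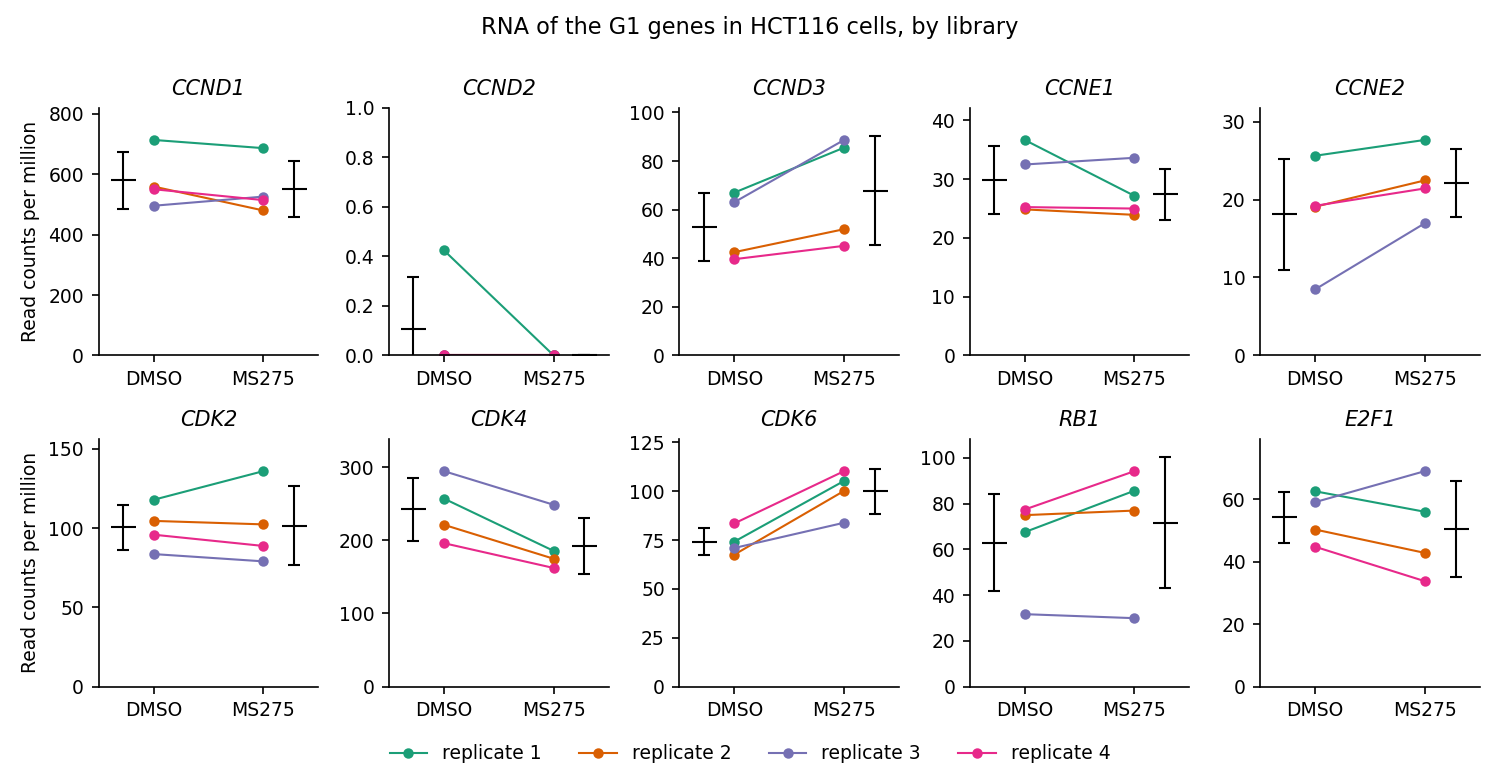
CPM of each gene in the 8 HCT116 RNA libraries (points), with lines joining the DMSO and MS275 libraries of one replicate number and black bars for the mean ± SD of each treatment (n = 4). All 4 lines rise for CDK6, CCND3 and CCNE2 and all 4 fall for CDK4, and replicate 3 lies far below the others for RB1 under both treatments.

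The genes around this switch were read from lists of G1/S regulators and of E2F target genes, and the values below are from the block fit, as without it none of either list was called. Of 28 G1/S regulators, 2 were called higher and 5 lower, with a median log2 change of -0.13, beside 7.83% of all genes called higher, 6.55% lower and a median of 0.01. The highest rise was that of CDKN2B, the p15 inhibitor of CDK4 and CDK6, from 9.504 ± 4.19 to 17.9 ± 6.38 CPM (log2 change 0.95 ± 0.157, edgeR adjusted p = 0.0025, 4 of 4 pairs). CDKN1A, the p21 inhibitor, rose by 0.28 (edgeR adjusted p = 0.017). Among the genes called, the largest falls were those of CDKN1B, the p27 inhibitor (-0.40, edgeR adjusted p = 0.022), and TFDP1, the partner of E2F proteins on DNA (-0.32, adjusted p = 0.0055). CCNA2, the S-phase cyclin, E2F4 and CKS1B were the other 3 called lower. With 1 replicate number left out, CDKN2B and TFDP1 were called in 4 of 4 fits, and CDKN1A and CDKN1B in 2 of 4 each.

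Of 22 E2F target genes, 0 were called higher and 9 lower, with a median log2 change of -0.22, beside the same 6.55% of all genes called lower. TYMS, which makes thymidylate for DNA, fell from 290.7 ± 48.1 to 213.5 ± 42.3 CPM (-0.45 ± 0.066, edgeR adjusted p = 0.0012, lower in 4 of 4 pairs). MCM5, a subunit of the replicative helicase, fell from 304.0 ± 40.4 to 227.9 ± 48.1 CPM (-0.43, edgeR adjusted p = 0.0014). CCNA2, which is in both lists, CDT1, MCM2, MCM3, MCM7, PCNA and RRM1 were the others called. With 1 replicate number left out, between 6 and 9 genes of the list were called, of which MCM2, MCM5, MCM7, PCNA and TYMS were called in 4 of 4 fits. The general markers of proliferation went in different directions, as MKI67 rose by 0.29 (edgeR adjusted p = 0.015) and PLK1 had a log2 change of -0.32 (adjusted p = 0.010). As given above, long-exon genes were higher with MS275 in 4 of 4 pairs. The part of exon length in both lists and these markers was not tested.

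The genes with a pattern most like CDK6 were RAB31 (Pearson r = 0.989 over 8 libraries), CGN (0.980) and LRRC3 (0.975), taken from 12093 genes with a mean of at least 100 counts. The 8 points share their libraries with the treatment contrast and r is given as a description.

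The chromatin of the members in HCT116 was read from 40 peaks, the narrowest 300 and the widest 10500 bp. Those within 1 kb of a start of the member, 11 in number, are called promoter peaks, and the others were 26 in a gene body, 2 downstream and 1 upstream. CDK6, a gene of 231674 bp on chromosome 7, alone held 21, and CCND3 held 6. The widths of the CDK6 peaks summed to 83550 bp, part of which lies beyond the start of the gene. A start of another gene lay within 1 kb of 10 of the 40 (TAF8 at CCND3, NDUFAF6 at CCNE2, PMEL and RAB5B at CDK2, AGAP2, TSPAN31 and MARCHF9 at CDK4, LPAR6 inside RB1 and NECAB3 at E2F1), so those peaks are shared.

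The CCND1 peak stood out in level. It covered 10500 bp around the start (chr11:69635251-69645750) and held 1206 ± 192 H3K18cr reads, scaled to the largest library, in DMSO (SD, n = 3), more than 99.3% of all peaks. Its log2 ratio to input was 2.57, and H3K18ac gave 1079 ± 430 reads and 2.35. The RB1 promoter peak (chr13:48302551-48305250) had a like ratio, 2.47 for H3K18cr and 2.67 for H3K18ac. CCND2 had no promoter peak: its only peak, of 750 bp (chr12:4271401-4272150), held 18.9 ± 2.48 H3K18cr reads in DMSO with 13.0 in the input.

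The third question was how MS275 changed the 2 marks at these peaks. ChIP-seq values scaled to library size measure how a mark is distributed over the genome. A lower value here is thus a lower share of the reads, and a change in the total amount of a mark cannot be seen. By other methods the study reported rises with MS275, in histone crotonylation on western blots and in H3K18cr by ChIP-qPCR at promoters and repeats. All 11 promoter peaks had a negative log2 change for each mark, although H3K18ac at 1 CCND3 peak turned to 0.07 with TMM scaling, and 7 were called lower for H3K18cr and 7 for H3K18ac (limma on the deposited log2 values, adjusted p under 0.05). With the replicate number as a block, limma called 0 member peaks for H3K18ac, beside 921 of all 39065 peaks tested. For H3K18cr it called 14, beside 10690 of 39011. Subtracting the log2 change of the single inputs, with no test, left 10 of 11 promoters negative for each mark. The labels do not say whether the 3 ChIP libraries of a group came from separate cultures, so their p-values measure only the spread between these libraries, which may be technical. Over all 38 member peaks with enough reads to test, 12 were called lower for H3K18cr, beside 23.7% of all 39011 peaks tested (23.9% in either direction, 0.238% higher), and 11 for H3K18ac, beside 16.9% of 39065 (17.1% in either direction, 0.256% higher), with 0 called higher for either mark. Peaks at gene starts fell widely: 55.4% of all peaks within 1 kb of a start were called lower for H3K18cr and 43.5% for H3K18ac. The median log2 change at the member promoters was -0.48 for H3K18cr and -0.66 for H3K18ac, beside -0.54 and -0.60 at all peaks near starts and -0.21 and -0.19 at all peaks. The members' promoters thus lay near the level of gene starts in general.

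E2F1 had the lowest log2 change of the 11 promoters for H3K18ac and, next to RB1, the lowest for H3K18cr. At its promoter peak (chr20:33684301-33687750), which holds the 2 octamers, H3K18cr went from 289.0, 264.8 and 269.1 scaled reads in DMSO to 157.5, 144.5 and 150.1 in MS275. The groups did not overlap, as for 39.5% of the member peaks and 30.6% of all peaks in this direction, and the log2 change was -0.86 ± 0.159 (limma, adjusted p = 0.00020). H3K18ac went from 209.4, 265.4 and 444.1 to 170.1, 115.5 and 127.8 reads, a log2 change of -1.10 ± 0.254 (limma, adjusted p = 0.00058), and DMSO library 3 was far above the other 2. Every MS275 library lay below every DMSO library there, as at 34.2% of member peaks and 23.5% of all peaks for H3K18ac. The RNA of E2F1 was not called.

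RB1 and CCND1 had changes of like size. At the RB1 promoter H3K18cr went from 243.0, 192.5 and 239.8 to 113.6, 103.4 and 154.3 scaled reads (log2 change -0.88 ± 0.178, limma adjusted p = 0.00049), with no overlap, and H3K18ac had a log2 change of -0.77 (adjusted p = 0.019). At CCND1 H3K18cr went from 1391, 1220 and 1007 to 671.5, 671.3 and 742.1 (log2 change -0.78 ± 0.151, limma adjusted p = 0.00030). H3K18ac at CCND1 had a log2 change of -0.79 (limma adjusted p = 0.010), but its groups overlapped, from 682.6 to 1536 reads in DMSO and 465.3 to 797.2 in MS275. With the input change subtracted, H3K18cr at CCND1 was -0.44. H3K18cr at E2F1, RB1 and CCND1 was called in all 12 alternative fits. With 1 library left out in turn, the H3K18ac call held in 5 of 6 fits at E2F1 and in 2 of 6 at RB1 and at CCND1. The RNA of RB1 and CCND1 was not called.

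The kinase promoters held a lower share of H3K18cr reads in limma, but none of these calls held with DESeq2 or with TMM scaling without the block. H3K18cr had a log2 change of -0.48 at CDK6 (chr7:92829301-92837850, limma adjusted p = 0.019), from 496 ± 54.0 to 354 ± 19.99 reads, of -0.45 at CDK4 (chr12:57750751-57757500, adjusted p = 0.039) and of -0.59 at CDK2 (chr12:55965301-55968450, adjusted p = 0.0070). With 1 library left out, the H3K18cr call held in 5 of 6 fits at CDK2 and in 2 of 6 at CDK6 and at CDK4. For H3K18ac CDK4 passed (-0.70, limma adjusted p = 0.035), while CDK6 (-0.59, adjusted p = 0.093) and CDK2 (-0.54, adjusted p = 0.14) did not. With TMM scaling CDK6 passed for H3K18ac (-0.33, edgeR adjusted p = 0.033). With TMM scaling H3K18cr had a log2 change of -0.24 at CDK6 (edgeR adjusted p = 0.17), -0.21 at CDK4 (0.26) and -0.34 at CDK2 (0.11). With TMM scaling and the replicate block, CDK6 (edgeR adjusted p = 0.033) and CDK2 (0.022) passed and CDK4 (0.084) did not. With the input change subtracted the limma value at CDK6 was -0.21.

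Among the remaining cyclins, CCNE1 passed for H3K18ac (-0.79, limma adjusted p = 0.016; chr19:29810101-29813400) and not for H3K18cr (-0.43, adjusted p = 0.080). CCNE2 passed for neither (-0.35 and -0.45; chr8:94893451-94897500). At the outer start of CCND3, where the peaks are shared with TAF8, the peak at chr6:42049951-42051450 passed for both marks (-0.69, limma adjusted p = 0.022 for H3K18cr and -0.66, adjusted p = 0.047 for H3K18ac). The peak beside it, chr6:42047401-42049950, passed for neither. With the input change subtracted the first of these was -0.14 and -0.11, and with TMM scaling neither mark passed there (edgeR adjusted p = 0.11 for each). With 1 library left out its calls held in 3 of 6 fits for H3K18cr and 2 of 6 for H3K18ac. A peak at an internal start of CCND3 (chr6:41940301-41942700) passed for H3K18ac only (-0.66, adjusted p = 0.045), and the difference between its marks did not pass (limma, unadjusted p = 0.42). The small CCND2 peak had log2 changes of 0.61 and 0.32, which did not pass.

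**Figure D3:**
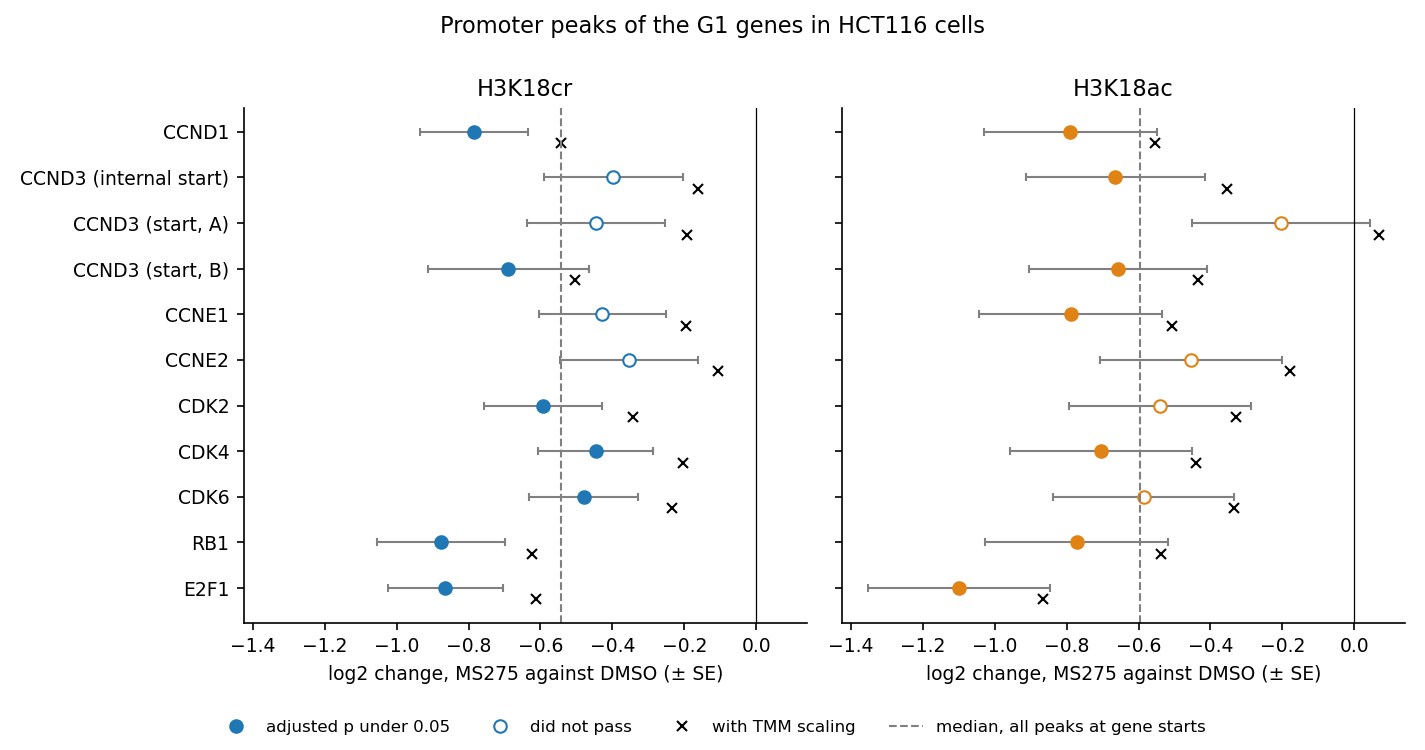
Log2 change with MS275 at the 11 promoter peaks in HCT116 cells, for H3K18cr (left) and H3K18ac (right), with bars for the SE (3 libraries per treatment). Filled circles passed an adjusted p under 0.05, crosses give the value after TMM scaling, and the dashed line is the median of all peaks near gene starts, around which most of the 11 lie.

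The gene body of CDK6 was described peak by peak. Over the 19 of the 20 CDK6 gene body peaks tested in limma, the median log2 change of H3K18cr was -0.13 and that of H3K18ac -0.23. With TMM scaling the median was 0.14 for H3K18cr, over 20 peaks with 0 calls, and -0.0007 for H3K18ac, over 19. The largest limma change of each mark was at chr7:92761051-92769450, 71.3 kb into the gene. There H3K18cr went from 380.0, 406.7 and 567.7 to 245.2, 239.3 and 328.3 scaled reads (-0.73 ± 0.170, limma adjusted p = 0.0018) and H3K18ac from 446.0, 461.5 and 639.8 to 327.2, 282.1 and 311.2 (-0.73 ± 0.2502, limma adjusted p = 0.025), with no overlap. H3K18cr was also called lower at peaks 25.7 and 190 kb from the start. Between 88.6 and 120.5 kb, 4 neighbouring peaks had H3K18cr changes of 0.05 to 0.35, none of which passed. Outside CDK6, the peak shared with AGAP2 and TSPAN31 downstream of CDK4 (chr12:57740551-57746250) fell for both marks (-0.57, limma adjusted p = 0.011, and -0.88, adjusted p = 0.0059).

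**Figure D4:**
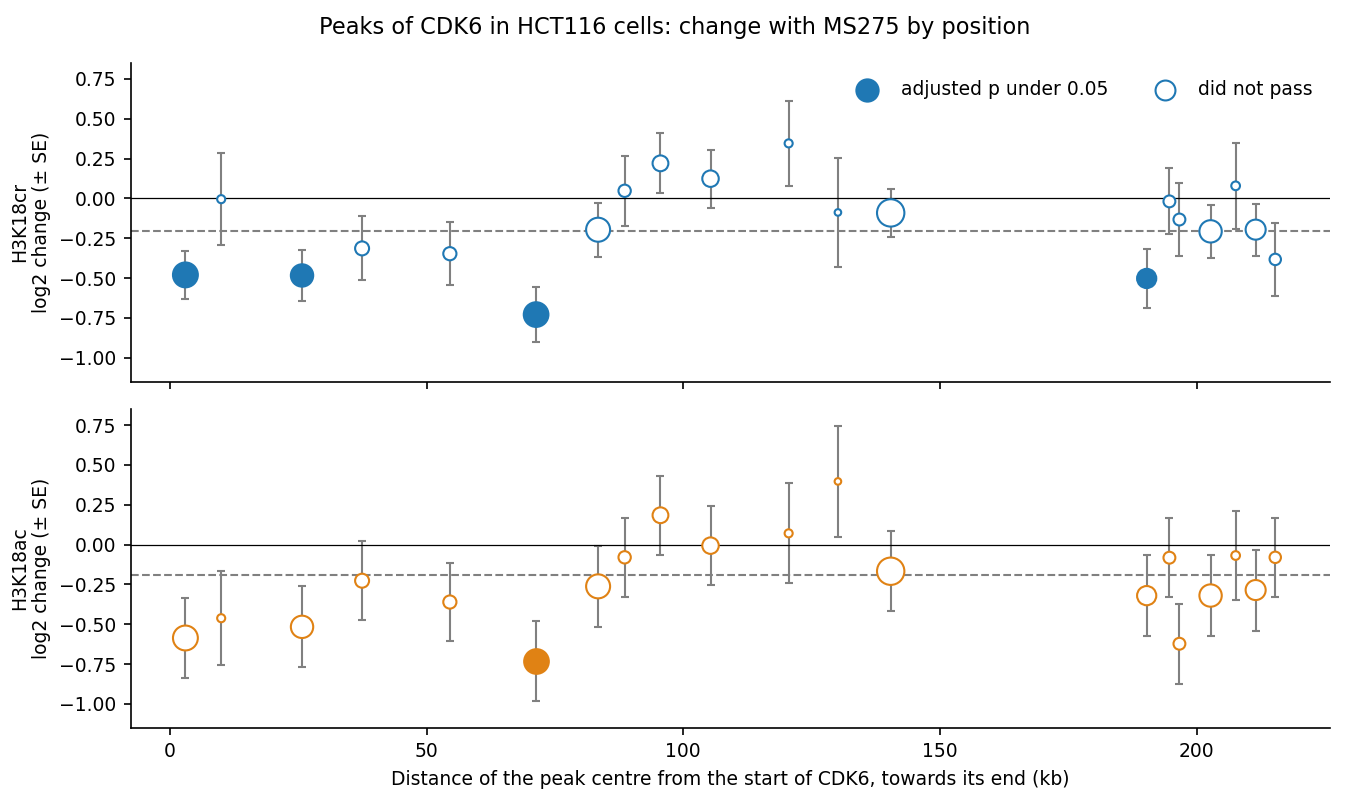
Log2 change with MS275 (± SE, 3 libraries per treatment) at the 20 CDK6 peaks tested, by the distance in kb of the peak centre from the start of the gene, for H3K18cr (top) and H3K18ac (bottom). Circle area grows with peak width, filled circles passed an adjusted p under 0.05 and the dashed line is the median of all peaks; the peak at 71.3 kb is filled for both marks.

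Crotonylation and acetylation moved alike within the error of these libraries. A limma test of the difference between their changes called 0 of 39080 peaks (0% called, 1.76% at an unadjusted p under 0.05), and none of the 38 member peaks had an unadjusted p under 0.05. The widest difference among members, 0.62 of log2, was at the peak 7.76 kb from the start of CDK2 (chr12:55973851-55975200), where H3K18cr had a log2 change of -0.17 and H3K18ac one of -0.79 (limma, unadjusted p = 0.056).

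How far the falls reached depended on scaling and on single libraries. With TMM scaling of the recovered reads, after which the median of all peaks is 0.04 in place of -0.21 (H3K18cr) and 0.06 in place of -0.19 (H3K18ac), edgeR called 3 member peaks lower for H3K18cr (the promoters of CCND1, RB1 and E2F1), beside 11.6% of all peaks (14% in either direction), and 9 lower for H3K18ac, beside 16.9% (21.8%). At all gene starts it called 30% lower for H3K18cr and 44.1% for H3K18ac, and of the 11 member promoters 3 and 6. With the replicate block added to TMM scaling it called 12 member peaks for H3K18cr and 8 for H3K18ac, of 10083 and 7353 in all. Without the block, TMM scaling also called the CCND2 peak higher for H3K18cr (0.89, edgeR adjusted p = 0.037), beside 2.45% of all peaks called higher (4.88% for H3K18ac), although it held only 18.9 reads in DMSO. The limma member counts are given next with the calls over all peaks in parentheses. For H3K18ac the count fell from 11 (6685) to 0 without MS275 library 2 (1459). It was 1 without MS275 library 3 (1891) or DMSO library 2 (3065), 3 without DMSO library 3 (3788) and 13 without DMSO library 1 (9338). For H3K18cr the count fell from 12 (9335) to 5 without MS275 library 2 (5965) and to 6 without DMSO library 1 (6204). It was 7 without MS275 library 1 (6214) or DMSO library 2 (6488), and 18 without DMSO library 3 (12649).

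The last question was which members carried the marks in colon epithelium. All 10 genes had at least 1 H3K18cr and 1 H3K4me3 promoter peak. The 23 H3K18cr peaks had a median log2 ratio to input of 1.41, beside 1.31 over all peaks, and the 22 H3K4me3 peaks one of 2.62, beside 1.65. Of the H3K18cr peaks 73.9% overlapped an H3K4me3 peak of the members by at least 1 base, and of the H3K4me3 peaks 86.4% overlapped an H3K18cr peak. With 2 and 3 ChIP libraries and no other condition, these are levels with no test.

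Cdk6 and Ccnd2 had the highest H3K18cr ratios. The Cdk6 promoter peak (chr5:3340651-3345450) held 433 and 692 scaled reads in libraries 1 and 2, with log2 ratios of 1.99 and 2.31, and its mean ratio lay above 97.8% of all peaks. At Ccnd2 (chr6:127149001-127151250) the ratios were 2.00 and 2.16, above 97.0%, from 207 and 276 reads. Rb1 (1.83, mean of 2) and Ccne2 (1.80) followed, and Ccnd1, the second most abundant of the cyclins, was at 1.49. E2f1 (1.22), Ccne1 (1.14) and Cdk4 (1.11) lay below the median of all peaks, and the Cdk4 libraries gave 0.60 and 1.62. The libraries of Cdk6 and Ccnd2 overlapped, as did those of Rb1 and Ccne2.

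H3K4me3 showed Cdk6 first as well. Around its start 4 peaks had mean log2 ratios of 4.66, 4.12, 2.34 and 3.60, on inputs of only 3 to 5 reads each, so these ratios are imprecise. Ccnd2 (chr6:127149001-127151400) had 3.14, with 287, 428 and 608 scaled reads, and Rb1 3.05. Ccnd3 had 3.09 at its internal start and 1.80 at its outer start, while H3K18cr had 1.13 and 1.62 there. Cdk4, whose RNA was among the highest, had 1.65, with 0.62 in library 1. H3K4me3 library 1 gave the lowest ratio of the 3 at all 16 promoter peaks.

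**Figure D5:**
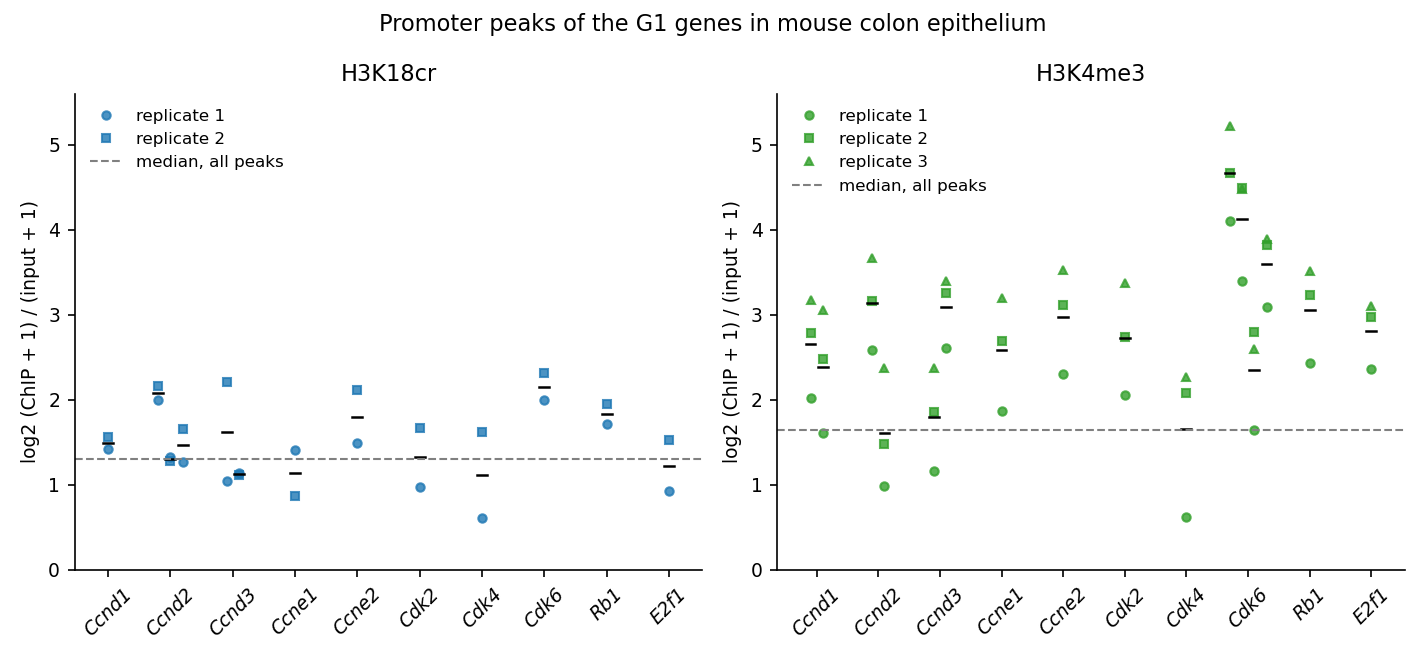
Log2 ratio of ChIP to input, with 1 read added to each, at the promoter peaks of the 10 genes in mouse colon epithelium, for H3K18cr (left, 2 libraries) and H3K4me3 (right, 3 libraries). Symbols are libraries, bars are means, genes with several promoter peaks have several columns, and dashed lines are the medians of all peaks; Cdk6 has the highest mean in each panel.

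Ccnd2 differed between the models in RNA and in H3K18cr: in colon it was the most abundant of the 10 RNAs per kb and carried H3K18cr at its start, and in HCT116 it had 0 counts in 7 of 8 libraries and no promoter peak in the list called for H3K18cr and H3K18ac. H3K4me3 in HCT116 was not analysed here.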

How the data were processed

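RNA-seq and ChIP-seq tables of HCT116 cells (GRCh38) and mouse colon epithelium (GRCm38) were used. The submitters' processing notes name Bowtie2 2.2.5, TopHat2 2.0.12 and Trim Galore 0.4.2. The deposited RNA values are raw read counts per gene, quantified by the authors in SEQMONK (stated for mouse; for human read from the layout of the table). The deposited HCT116 ChIP values are log2 read counts that the authors scaled to the largest library, over 1 MACS peak list for all libraries. The deposited colon ChIP values are a signal, the read counts in peaks scaled by the authors in the same way. Whole reads were recovered from all ChIP values (100% whole within 0.05 of a read).

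RNA was tested with edgeR 4.0.16 (quasi-likelihood, TMM, filterByExpr), with and without the replicate number as a block, and DESeq2 1.42.0. Same-numbered RNA libraries, numbered by the labels, deviated together (correlations 0.226, 0.151, 0.433 and 0.460), although DMSO 2 with MS275 4 (0.239) and DMSO 4 with MS275 2 (0.219) exceeded pair 2, and those of H3K18cr (0.113, 0.080 and 0.248) and H3K18ac (-0.206, 0.055 and -0.134) were not treated as pairs, although the study paired them in its own test over gene starts. ChIP was tested with limma 3.58.1 (trend) on the deposited log2 values where a peak averaged 10 reads or more, with edgeR (TMM) and DESeq2 on recovered reads as alternatives. P-values were adjusted by Benjamini-Hochberg over all features, with a threshold of 0.05. Colon ChIP was compared with input as log2 ratios with 1 read added. The ± values are SDs between libraries or SEs of the fits, and only the limit of 3 counts covers counting error. Members and lists were chosen with earlier results of these data known. Genes of the lists named are the 2 largest rises and falls among those called, with the others listed by name, and the 3 genes most like the member with the largest blocked change; PAG1, the proliferation markers and COL1A1 were added after their values were seen.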

Additional observations from a re-analysis of the deposited data

Results flagged for a closer look

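CCND2 in HCT116 DMSO library 1 stood apart from its group, at 0.4242 CPM (19 counts) while the other 3 DMSO libraries were at 0. It was found by comparing the gap of an extreme value to the next with the range, in 19 groups of 4 libraries. With the others at 0 any count would have passed, so the usual chance rate of 1 in 20 does not apply to it. Its source was not tested.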

How the results depend on the processing

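In the RNA of HCT116, where 1 gene was called without the replicate block, DESeq2 called 161, no filter on low counts 13, and the replicate block 2151. With 1 library or replicate number left out the calls ranged from 0 to 2584 (968, 994, 2584 and 1037 with the block and without replicates 1 to 4). Members called went from 0 to 3 with the replicate block and from 0 to 2 with 1 left out, G1/S regulators from 0 to 7 and 0 to 7, and E2F target genes from 0 to 9 and 0 to 9 (8 with the block and without replicate 1). For H3K18cr, 9335 peaks called became 3441 with DESeq2, 5439 with TMM scaling, 5987 in limma without a trend, 6068 at an adjusted p under 0.01, and 5965 to 12649 with 1 library left out. The 12 member peaks became 3, 4, 5 and 5 in the same order, 7 within 1 kb of a start, and 5 to 18. For H3K18ac, 6685 became 3882 at an adjusted p under 0.01, 921 with the replicate block, whose numbers did not pair the ChIP libraries, and 1459 to 9338 with 1 left out. Its 11 member peaks became 6 with DESeq2, 5 without a trend, 2 at an adjusted p under 0.01, 7 within 1 kb of a start, 0 with the block and 0 to 13. The causes were not tested. For H3K18cr the block gave 10690 peaks and 14 members.

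Directions turned for these values, none of which passed as reported. CDK2 RNA, at 0.02, was -0.0034 with the replicate block (-0.073 and -0.0074 without replicates 1 and 2) and ranged from -0.16 to 0.12 with 1 left out; CCND1 ranged from -0.19 to 0.044, RB1 from -0.032 to 0.44 and E2F1 from -0.29 to 0.046. At the CCND3 peak chr6:42047401-42049950, H3K18cr turned to 0.16 and H3K18ac to 0.40 with the input change subtracted, and H3K18ac to 0.061 with DESeq2, 0.069 with TMM scaling and 0.065 with TMM scaling and the replicate block. The Ccnd2 to Ccnd1 ratio in colon, 1.16, was 2.33 without length and 1.37 on the longest transcript. The limma fit without a trend, the block with TMM and the input subtraction were chosen after seeing the data. Depth limits the CCND2 level in HCT116, and the few input reads limit the colon H3K4me3 ratios.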
